A study of Homo sapiens with 12 samples.

Results

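The transcripts of 10 genes were followed in breast cancer cells with and without CD44: the receptor tyrosine kinases EGFR, ERBB2, ERBB3, MET and AXL, and the ligands HGF, EREG, AREG, HBEGF and TGFA. They were taken from a table of 58381 genes by their Ensembl identifiers, without use of their measured values. RNA was sequenced from Hs578T and MDA-MB-231, human breast cancer cell lines, in 4 groups of 3 libraries each. In both lines the cells carried a doxycycline-inducible, puromycin-selected Cas9. CD44 KO cells received guide RNAs against CD44 and were sorted as live CD29+ CD44- cells, whereas CD44 WT cells received transfection reagent alone and were sorted as live CD29+ CD44+ cells. Cas9 was induced with doxycycline in the course of the guide transfections, and all cells were starved in low serum before RNA was taken. The CD44 KO cells are sorted populations and not single clones, so that each library holds a mixture of edited alleles, and the guide RNAs and the gate differ between the groups together with CD44.

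CD44 is a surface glycoprotein that binds hyaluronan, and it has been described as a co-receptor for EGFR, ERBB2 and MET. Members of the ERBB family are switched on when an EGF-like ligand brings receptors together: EGFR binds EREG, AREG, HBEGF and TGFA, ERBB3 binds neuregulins but has little kinase activity of its own, and ERBB2 has no known ligand and pairs with the others. MET is the receptor for HGF, which cells of the stroma commonly make, and AXL is a receptor for GAS6. The EGF-like ligands are made as membrane proteins and are released by proteases such as ADAM17.

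The ligands EREG and AREG were counted in all MDA-MB-231 libraries and in no Hs578T library, and they are neighbours on chromosome 4 (GRCh38, plus strand), 56.4 kb apart. Their promoters are shown for that reason, as the 250 bases before the start site in RefSeq (GRCh38.p14), for EREG at chr4:74364895-74365144 and for AREG at chr4:74444886-74445135. Capitals mark matches to 4 motifs searched on both strands, which were the cyclic AMP response element TGACGTCA, the AP-1 site TGANTCA, the TATA box TATAAA and the GC box GGGCGG.
EREG: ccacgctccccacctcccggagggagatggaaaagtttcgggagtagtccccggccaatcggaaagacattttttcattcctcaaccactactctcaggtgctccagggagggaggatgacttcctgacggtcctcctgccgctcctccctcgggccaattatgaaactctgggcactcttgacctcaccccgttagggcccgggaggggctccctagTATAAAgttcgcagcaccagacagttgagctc
AREG: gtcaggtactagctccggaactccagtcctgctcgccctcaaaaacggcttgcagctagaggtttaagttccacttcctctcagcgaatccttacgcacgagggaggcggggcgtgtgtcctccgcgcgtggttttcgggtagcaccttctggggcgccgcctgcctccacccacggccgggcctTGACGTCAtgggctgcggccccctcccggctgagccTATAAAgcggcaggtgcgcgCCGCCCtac
Both windows held a TATA box, which began 32 bases before the start in EREG and 29 bases before it in AREG. AREG also held a cyclic AMP response element 65 bases and a reverse-strand GC box 9 bases before the start. Of 35116 promoter windows of this length, 10.7% held the TATA box, 1.65% the cyclic AMP response element, 6.57% the AP-1 site and 42.6% the GC box. A promoter window was found for 9 of the 10 genes, and those of HBEGF and TGFA held 5 and 3 GC boxes and none of the other motifs. These are matches of letters, and no binding was measured.

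The libraries held 10257586 to 19725543 counts. CD44, the targeted gene, was counted in every library, at 494 to 527 CPM (counts scaled to a common library size with TMM factors) in Hs578T CD44 WT and 24.9 to 28.6 CPM in Hs578T CD44 KO. In MDA-MB-231 it was at 360 to 363 CPM in CD44 WT and 30.02 to 40.3 CPM in CD44 KO, so that in both lines all CD44 KO libraries lay below all CD44 WT libraries. The log2 fold change was -4.22 (SE 0.111) in Hs578T and -3.40 (SE 0.107) in MDA-MB-231. Of the epithelial markers, EPCAM, CDH1 and KRT19 were under 1 CPM in Hs578T and CDH1 under 1 CPM in MDA-MB-231, whereas KRT18 and the mesenchymal marker VIM were high in every library. Both separated CD44 KO from CD44 WT in each line. Such a separation was found for 37.3% of all genes tested in Hs578T and 25.5% in MDA-MB-231. VIM was at 4920 to 5160 CPM in Hs578T CD44 KO against 3730 to 3990 CPM in CD44 WT, and at 6270 to 7260 against 4710 to 5070 CPM in MDA-MB-231. KRT18 was at 357 to 386 against 399 to 414 CPM in Hs578T and at 469 to 470 against 552 to 745 CPM in MDA-MB-231. The other markers of these lists did not all follow. FN1 overlapped between CD44 KO and CD44 WT in both lines, and KRT8 did in Hs578T (517 to 553 against 543 to 596 CPM). ZEB1 was higher in all CD44 KO libraries of both lines. CDH2 was higher in those of Hs578T and under 1 CPM in MDA-MB-231. KRT8 and KRT19 were lower in all CD44 KO libraries of MDA-MB-231. The sum of the 5 epithelial markers was 875 to 932 CPM in CD44 KO against 958 to 997 CPM in CD44 WT of Hs578T, and 952 to 1090 against 1180 to 1480 CPM in MDA-MB-231. PGR had no counts in any library, and ESR1 reached 1.15 CPM at most. Of the 3 leukocyte markers, PTPRC was at 3.21 to 4.81 CPM in Hs578T CD44 KO against 0.254 to 0.576 CPM in Hs578T CD44 WT, and the sum of the 3 was 3.64 to 5.29 against 0.902 to 0.987 CPM. CD68 and CD3E were at 0.592 CPM or lower in these libraries. Of the fibroblast markers, COL1A1 was at 2620 to 4090 CPM in Hs578T CD44 WT and 3440 to 3710 CPM in CD44 KO. In MDA-MB-231 it reached 13.4 CPM. PDGFRB was at 67 to 71.7 CPM in Hs578T CD44 KO against 47.6 to 55.3 CPM in CD44 WT, and overlapped in MDA-MB-231. DCN stayed under 1 CPM. The sum of the 3 endothelial markers was 14.8 to 15.5 against 11.9 to 14.2 CPM in Hs578T, and 4.15 CPM at most in MDA-MB-231. The part of these marker shifts in the results was not tested. MDA-MB-231 CD44 WT replicate 1 differed from the others of its group by a chi-square per gene of 21.4 and 32.6, against 6.14 between those. Hs578T CD44 WT replicate 3 (15.1 and 9.87 against 4.68) and MDA-MB-231 CD44 KO replicate 1 (12.9 and 16.1 against 6.22) also differed more. Results without single libraries are given where a call changes. Whether replicate libraries stem from separate cultures is not in the labels, so the p-values measure the spread between these libraries, which may be technical.

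Of the 10 genes, 9 passed the filter for testing, which asked for more than 1 CPM in at least 2 libraries. HGF did not pass. In Hs578T, 2 of the 9 were called between CD44 KO and CD44 WT at an adjusted p of at most 0.01, ERBB3 lower and MET higher, where 7.51% of all 15836 genes tested were called, 3.64% as higher and 3.86% as lower. EREG and AREG had no counts in this line, so no change could be read for them. In MDA-MB-231, 0 of the 9 were called by edgeR's quasi-likelihood test, where 4.62% of all genes were called, 1.97% as higher and 2.65% as lower. DESeq2 also called 0 of them. At an unadjusted p under 0.05 in edgeR's quasi-likelihood test there were 4 of the 9 in MDA-MB-231 and likewise 4 in Hs578T.

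Values of single libraries are given in the order of replicates 1, 2 and 3, or, for MDA-MB-231 CD44 WT, of replicates 1 and 3 and a library whose number the labels do not settle. ERBB3, the kinase-poor partner of ERBB2, fell in Hs578T. It was at 8.18, 10.4 and 4.66 CPM in the 3 CD44 WT libraries and at 2.33, 3.08 and 2.30 CPM in the 3 CD44 KO libraries. All CD44 KO libraries lay below all CD44 WT libraries, although the CD44 WT libraries spread widely. The log2 fold change was -1.57 (SE 0.257, 95% confidence interval -2.12 to -1.02, Benjamini-Hochberg adjusted p = 0.000683, edgeR's quasi-likelihood test). This call was kept without any of the 12 libraries in turn, with an adjusted p of 0.00623 at most. The counts behind it are few, 299 in CD44 WT and 106 in CD44 KO over 3 libraries each. ERBB3 lies on chromosome 12 (56076799 to 56103505, plus strand) and overlaps another gene on the same strand, ENSG00000257411, so reads over the shared part may have been left out of its count.

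In MDA-MB-231, ERBB3 was at 10.5, 9.17 and 8.82 CPM in CD44 WT and at 6.61, 6.99 and 8.59 CPM in CD44 KO. All CD44 KO libraries were again lower, by a log2 fold change of -0.37 that was not called (SE 0.230, adjusted p = 0.370, edgeR's quasi-likelihood test). Such a separation of the groups was found for 25.5% of all genes tested in this line and for 37.3% in Hs578T. In bulk RNA, fewer cells that express ERBB3 and less ERBB3 RNA per cell cannot be told apart.

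MET, the HGF receptor, rose in Hs578T. Its level was 94.2, 99.8 and 104 CPM in CD44 WT and 163, 164 and 140 CPM in CD44 KO, with no overlap between the groups. The log2 fold change was 0.65 (SE 0.143, 95% confidence interval 0.34 to 0.95, adjusted p = 0.00632, edgeR's quasi-likelihood test), a 1.57-fold rise. Leaving out any one of the 6 Hs578T libraries took MET past the threshold, with adjusted p from 0.0124 to 0.0372 and log2 fold changes from 0.61 to 0.73. MDA-MB-231 gave 201, 291 and 339 CPM in CD44 WT and 277, 278 and 246 CPM in CD44 KO. The CD44 KO libraries fell within the range of the CD44 WT libraries, and the log2 fold change was -0.05 (95% confidence interval -0.35 to 0.25). MET lies on chromosome 7 (116672390 to 116798386, plus strand).

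EGFR, which binds most of the ligands measured here, is also on chromosome 7 (55019021 to 55211628, plus strand). In Hs578T it was at 177, 176 and 168 CPM in CD44 WT and at 173, 201 and 165 CPM in CD44 KO. The groups overlapped, and the log2 fold change was 0.05 (95% confidence interval -0.32 to 0.42). In MDA-MB-231 the values were 394, 521 and 687 CPM in CD44 WT and 897, 794 and 575 CPM in CD44 KO. The lowest CD44 KO library lay below the highest CD44 WT library, and the log2 fold change of 0.50 (SE 0.173, 95% confidence interval 0.13 to 0.87) was not called (adjusted p = 0.0867, edgeR's quasi-likelihood test).

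AXL, on chromosome 19 (41219203 to 41261766, plus strand), was at 296, 300.3 and 244 CPM in Hs578T CD44 WT and at 291, 249 and 273 CPM in Hs578T CD44 KO, with groups that overlapped. Its log2 fold change there was -0.05 (95% confidence interval -0.30 to 0.20). In MDA-MB-231, AXL was at 652, 704 and 696 CPM in CD44 WT and at 1003, 795 and 729 CPM in CD44 KO. All CD44 KO libraries were higher, by a log2 fold change of 0.30 that was not called (SE 0.115, adjusted p = 0.125, edgeR's quasi-likelihood test).

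ERBB2, on chromosome 17 (39687914 to 39730426, plus strand), was separated between the groups in both lines, in opposite directions, without a call in either. Hs578T had 77.1, 82.3 and 76.6 CPM in CD44 WT and 96.0, 86.2 and 101 CPM in CD44 KO, a log2 fold change of 0.26 (SE 0.107, adjusted p = 0.121, edgeR's quasi-likelihood test). MDA-MB-231 had 88.2, 75.0 and 64.8 CPM in CD44 WT and 64.0, 57.4 and 64.2 CPM in CD44 KO, a log2 fold change of -0.30 (SE 0.109, adjusted p = 0.105, edgeR's quasi-likelihood test). MIR4728 lies on the same strand within the span of ERBB2.

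**Figure D1:**
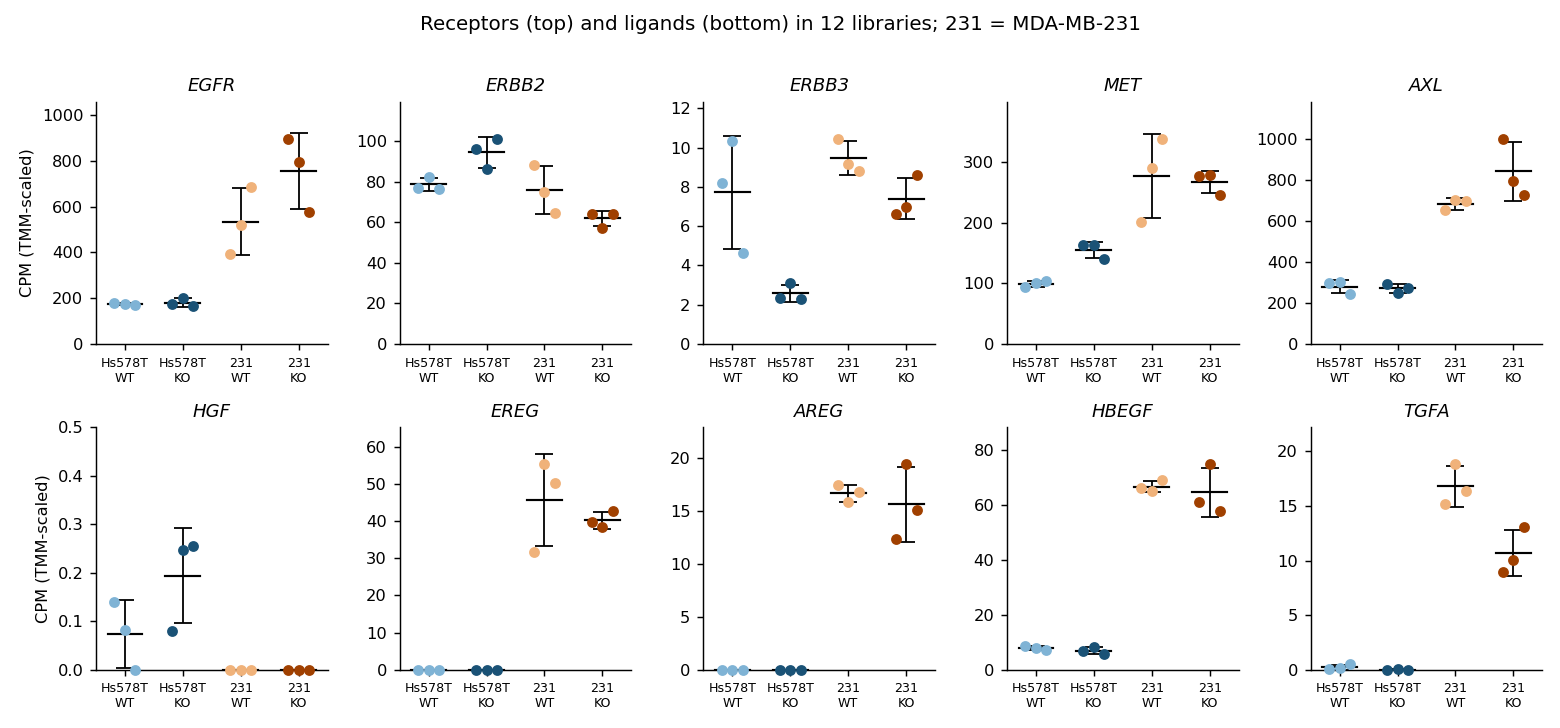
CPM (TMM-scaled, linear axes from 0) of the 5 receptors and 5 ligands in the 12 libraries. Points are libraries, horizontal lines group means and bars 1 SD (n = 3); ERBB3 is lower and MET higher in all 3 Hs578T CD44 KO libraries, and EREG and AREG stand at 0 in all Hs578T libraries.

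No ligand was called in either line. HBEGF, a heparin-binding ligand of EGFR, was at 8.60, 7.98 and 7.19 CPM in Hs578T CD44 WT and at 6.66, 8.32 and 5.80 CPM in Hs578T CD44 KO. In MDA-MB-231 it was at 66.0, 65.0 and 68.9 CPM in CD44 WT and at 61.2, 74.7 and 57.8 CPM in CD44 KO. The groups overlapped in both lines, and the log2 fold changes were -0.18 (95% confidence interval -0.51 to 0.15) in Hs578T and -0.04 (-0.30 to 0.21) in MDA-MB-231.

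EREG, a ligand of EGFR and ERBB4, was at 31.8, 55.3 and 50.3 CPM in MDA-MB-231 CD44 WT and at 39.7, 38.4 and 42.9 CPM in CD44 KO. AREG, a ligand of EGFR alone, was at 17.4, 15.8 and 16.8 CPM in CD44 WT and at 12.4, 19.4 and 15.1 CPM in CD44 KO of that line. For both ligands the groups overlapped, with log2 fold changes of -0.19 (95% confidence interval -0.58 to 0.21) for EREG and -0.08 (-0.48 to 0.31) for AREG. Neither had a single count in the 6 Hs578T libraries.

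TGFA, another EGFR ligand, was at 15.2, 18.8 and 16.4 CPM in MDA-MB-231 CD44 WT and at 8.98, 10.1 and 13.04 CPM in CD44 KO. All CD44 KO libraries were lower, and the log2 fold change of -0.66 (SE 0.207, 95% confidence interval -1.10 to -0.22) was not called (adjusted p = 0.0596, edgeR's quasi-likelihood test). In Hs578T, TGFA had 1, 2 and 6 counts in CD44 WT and 0, 1 and 0 counts in CD44 KO. The ratio of CD44 WT to CD44 KO from 9 and 1 counts was 9.47, with an exact 95% counting interval of 1.31 to 415, and TGFA was not called there either (adjusted p = 0.0871, edgeR's quasi-likelihood test). TGFA-IT1 overlaps TGFA on the same strand. Counting intervals and lower bounds given here cover counting error alone.

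HGF, the ligand of MET, had at most 4 counts in a library. It had 2, 1 and 0 counts in Hs578T CD44 WT and 1, 4 and 3 counts in Hs578T CD44 KO, a ratio of CD44 KO to CD44 WT of 2.53 with an exact 95% counting interval of 0.608 to 14.8. No count fell on HGF in MDA-MB-231.

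**Figure D2:**
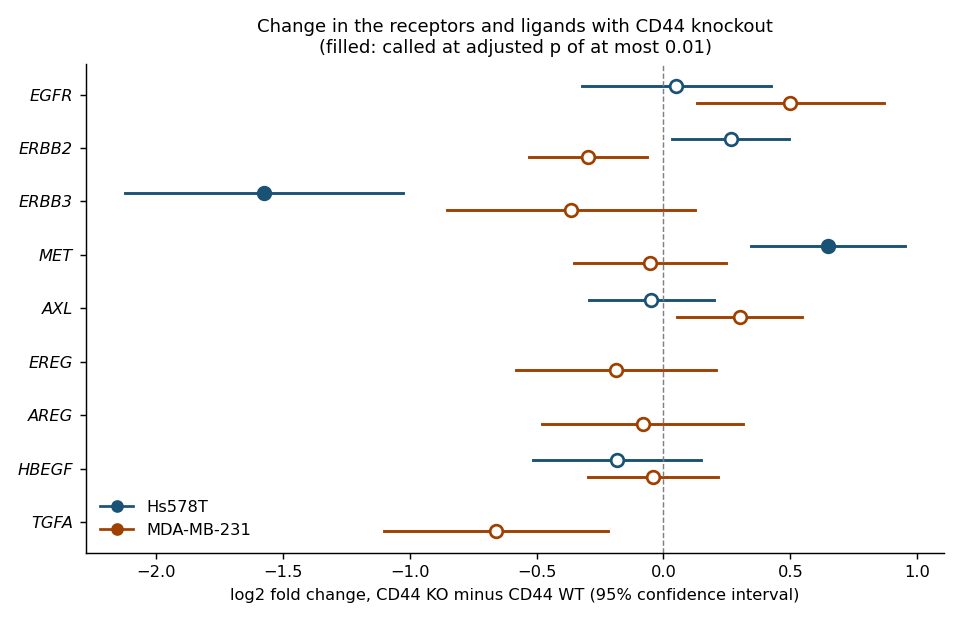
Log2 fold change, CD44 KO against CD44 WT, with its 95% confidence interval in Hs578T (blue) and MDA-MB-231 (brown), from the fit over all genes. Filled circles are called; only ERBB3 and MET in Hs578T are filled. HGF is not shown, nor are EREG, AREG and TGFA in Hs578T, where they had 9 counts or fewer in a group.

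Whether the change differed between the lines was tested directly. The difference, Hs578T minus MDA-MB-231, was -1.21 for ERBB3 (SE 0.346, adjusted p = 0.0368), 0.70 for MET (SE 0.200, adjusted p = 0.0368) and 0.56 for ERBB2 (SE 0.153, adjusted p = 0.0296) on the log2 scale by edgeR's quasi-likelihood test. None of the 9 genes reached an adjusted p of 0.01, where 4.12% of all genes tested did (2.33% higher and 1.79% lower in Hs578T), while 3 had an unadjusted p under 0.05 and DESeq2 called 1, ERBB2 (adjusted p = 0.00990). Leaving out a single library brought 1 gene past the threshold in 3 cases, ERBB3 without Hs578T CD44 WT replicate 3 (-1.46, adjusted p = 0.00291), MET without MDA-MB-231 CD44 WT replicate 1 (0.89, adjusted p = 0.000432) and ERBB2 without the MDA-MB-231 CD44 WT library that has no number (0.67, adjusted p = 0.00721), by edgeR's quasi-likelihood test. The call for ERBB3 or MET in Hs578T is therefore not shown to be particular to that line at this threshold.

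Compared as CPM per kb of exonic length, AXL had the highest level in every group. This length takes in all annotated exons of a gene, 5154 nt for AXL and 10321 nt for ERBB2. It may exceed the length of the transcripts present, and the order of the genes depends on it. In Hs578T CD44 WT, AXL was at 54.3 ± 6.10 CPM per kb (SD, n = 3), followed by MET at 14.1 ± 0.667 and EGFR at 13.9 ± 0.397, whose libraries overlapped. ERBB2 followed at 7.62 ± 0.303, HBEGF at 2.63 ± 0.234 and ERBB3 at 0.856 ± 0.319 CPM per kb, each apart from its neighbours in this order. TGFA and HGF followed with overlapping levels of 0.102 CPM per kb at most, and HGF, at 0 in 1 library, overlapped EREG and AREG, which were at 0 in all. In Hs578T CD44 KO, MET at 22.1 ± 1.88 CPM per kb stood apart from EGFR at 14.4 ± 1.52.

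In MDA-MB-231 CD44 WT, AXL was at 133 ± 5.48 CPM per kb, and EGFR at 42.7 ± 11.7 and MET at 39.3 ± 9.92 overlapped. HBEGF followed at 22.1 ± 0.660, and AREG at 10.1 ± 0.483, EREG at 8.01 ± 2.17 and ERBB2 at 7.36 ± 1.14 formed a run in which each overlapped the next. TGFA at 3.38 ± 0.374 and ERBB3 at 1.05 ± 0.0954 CPM per kb were lower and apart. HGF was at 0. HBEGF thus stood above ERBB2 in this line, whereas in Hs578T CD44 WT it stood below ERBB2 and above ERBB3, and the other ligands below ERBB3.

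**Figure D3:**
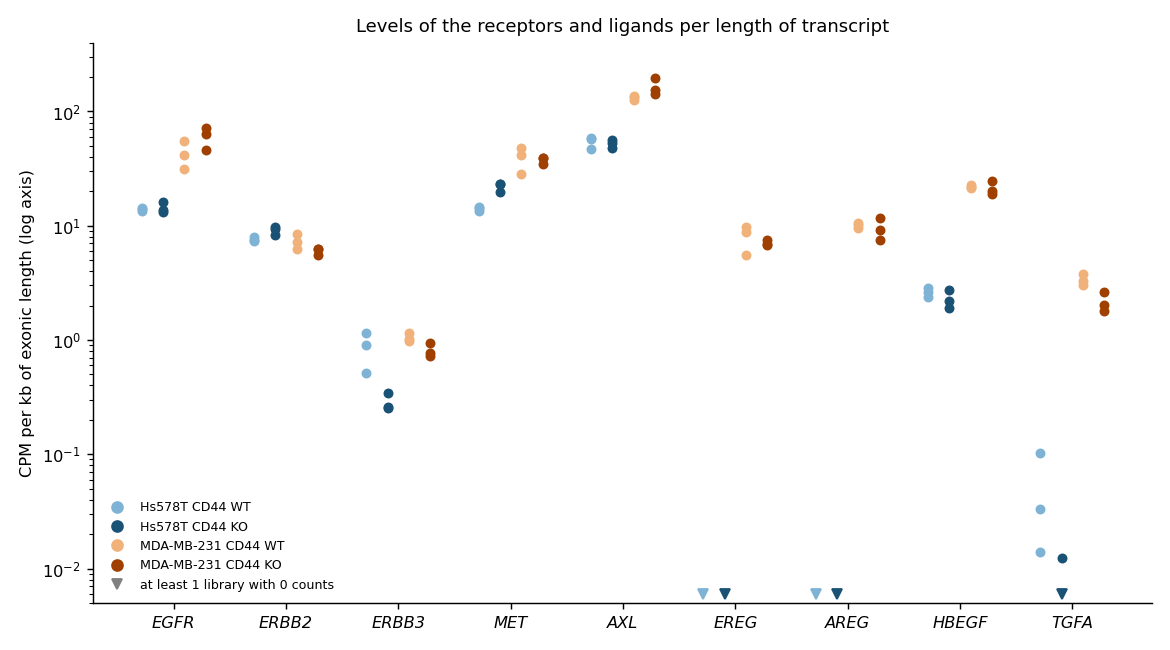
CPM per kb of exonic length on a log axis for the 9 tested genes, with 1 point for each library in the 4 groups. Triangles at the lower edge mark groups with at least 1 library at 0 counts; EREG and AREG have 0 counts in all Hs578T libraries, and AXL is highest in all 4 groups.

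Between the CD44 WT cells of the 2 lines, 7 of the 9 genes were called, each lower in Hs578T, where 61.5% of all genes tested were called, 29.4% as lower in Hs578T. EREG, AREG and TGFA passed the filter through MDA-MB-231 alone and so had to differ. Of the receptors, EGFR was lower in Hs578T by a log2 fold change of -1.62 (SE 0.178), MET by -1.48 (SE 0.145) and AXL by -1.29 (SE 0.117), with adjusted p of 9.84e-08 for AXL and 8.23e-07 for EGFR from edgeR's quasi-likelihood test. ERBB2 (0.05, 95% confidence interval -0.18 to 0.28) and ERBB3 (-0.29, -0.78 to 0.20) were not called. HBEGF was lower by -3.07 (SE 0.140, adjusted p = 3.47e-11, same test). The groups did not overlap for the 7 called genes, as for 71.8% of all genes tested.

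For the sparse ligands the counts themselves give the size. EREG had 1618 counts in MDA-MB-231 CD44 WT and 0 in Hs578T CD44 WT, at least 588-fold lower when 0 is taken as 3 counts over the group. AREG, with 586 counts, was at least 213-fold lower on the same floor. TGFA had 593 and 9 counts, a ratio of 71.8 (exact 95% counting interval 37.6 to 158). In the CD44 KO cells, EREG was at least 537-fold and AREG at least 219-fold lower in Hs578T.

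Around these receptors, 92 further genes in 9 lists were read, of which 81 were tested. In Hs578T, 14 of the 81 were called between CD44 KO and CD44 WT, 9 higher and 5 lower, which is 17.3% beside 7.51% of all genes. In MDA-MB-231, 1 of 81 was called, 1.23% beside 4.62%. These lists were chosen with earlier results of these data known, and no test of a list was made.

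Of the other ERBB ligands tested, EGF and NRG1 were called as higher in Hs578T and NRG2 was not called. Of all genes tested, 3.64% were called as higher there. EGF, the founding ligand of EGFR, was at 6.73, 11.02 and 9.14 CPM in CD44 WT and at 19.98, 18.4 and 19.9 CPM in CD44 KO, all CD44 KO libraries higher (log2 fold change 1.12, SE 0.256, adjusted p = 0.00784, edgeR's quasi-likelihood test). NRG1, a neuregulin that binds ERBB3, was at 8.39, 11.8 and 14.6 CPM in CD44 WT and at 26.9, 21.7 and 23.6 CPM in CD44 KO (1.06, SE 0.152, adjusted p = 0.000216, same test). NRG2, another neuregulin that binds ERBB3, was at 8.11 ± 0.864 CPM in CD44 WT and 7.09 ± 0.484 CPM in CD44 KO (SD, n = 3), with a log2 fold change of -0.19 that was not called (adjusted p = 0.629, same test). These 3 were the genes of the list that were tested, of 8 listed. MDA-MB-231 had 19 EGF counts in CD44 KO and 14 in CD44 WT, and its NRG1 was at 99.3 ± 2.12 CPM in CD44 WT and 107 ± 5.75 CPM in CD44 KO (SD, n = 3).

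Among the MET and TAM families, 2 of 6 tested genes were called in Hs578T, both lower, where 3.86% of all genes were called as lower. MERTK, a relative of AXL, had 30, 19 and 17 counts in CD44 WT and 8, 5 and 4 counts in CD44 KO (log2 fold change -1.997, SE 0.325, adjusted p = 0.000654, edgeR's quasi-likelihood test). GAS6, the ligand of AXL and MERTK, was at 34.3, 31.3 and 21.9 CPM in CD44 WT and at 20.5, 15.6 and 18.4 CPM in CD44 KO (-0.69, SE 0.158, adjusted p = 0.00805, same test). Both were lower in all CD44 KO libraries, with AXL itself at -0.05.

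Of the 10 tested genes that dampen ERK signalling, 3 were called as higher in Hs578T and 0 as lower. Of all genes tested, 3.64% were called as higher and 3.86% as lower. The median log2 fold change of the 10 was 0.42 beside -0.002 over all genes, and 7 of the 10 changes were positive. SPRED2 (-0.29) and DUSP7 (-0.26) were lower in all CD44 KO libraries without a call. DUSP6, a phosphatase that acts on ERK, was at 21.0, 28.9 and 22.0 CPM in CD44 WT and at 45.7, 85.5 and 59.9 CPM in CD44 KO, with no overlap (log2 fold change 1.42, SE 0.201, adjusted p = 0.000199, edgeR's quasi-likelihood test). The Sprouty genes SPRY4 and SPRY2, inhibitors of receptor signalling, were higher by 0.93 and 0.71.

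Of the 10 tested genes listed as induced by ERK, 3 were called as higher in Hs578T and 1 as lower, beside 3.64% and 3.86% of all genes. ETV1, an ETS transcription factor, was at 5.69, 5.51 and 4.15 CPM in CD44 WT and at 43.2, 58.3 and 40.0 CPM in CD44 KO, a 9.19-fold rise (log2 fold change 3.20, SE 0.280, adjusted p = 2.15e-06, edgeR's quasi-likelihood test). PHLDA1 (0.93) and FOSL1 (0.55), the latter a partner in AP-1, were higher as well. EPHA4, an ephrin receptor, was at 9.78, 7.90 and 3.05 CPM in CD44 WT and at 1.12, 1.11 and 1.28 CPM in CD44 KO (-2.57, SE 0.382, adjusted p = 0.000313, same test). The immediate early gene EGR1 had a log2 fold change of 1.57 that was not called.

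Among 13 tested genes of receptor feedback and turnover, LRIG3 (-0.96) and SOCS5 (-0.75) fell and CBLB, a ubiquitin ligase of the CBL family, rose (0.66) in Hs578T. All 3 were called, where 7.51% of all genes were called. None of the tested genes of the adaptors (10), the RAS-ERK cascade (10) or the PI3K-AKT cascade (10) was called in either line by edgeR's quasi-likelihood test or by DESeq2. At an unadjusted p under 0.05, Hs578T had 0 adaptors, 2 genes of the RAS-ERK cascade and 3 of the PI3K-AKT cascade, and MDA-MB-231 had 2, 1 and 1. Of 9 tested genes of ligand activation and shedding, 0 were called in Hs578T (3 at an unadjusted p under 0.05 and 1 by DESeq2). ADAM17, the sheddase of several EGF-like ligands, was the 1 listed gene called in MDA-MB-231. It was at 77.0, 94.2 and 105 CPM in CD44 WT and at 52.9, 68.1 and 64.6 CPM in CD44 KO, lower in all CD44 KO libraries (-0.57, SE 0.116, adjusted p = 0.00547, edgeR's quasi-likelihood test). Of the 34 genes tested within 5 Mb of ADAM17, 8 were called in MDA-MB-231 and their median log2 fold change was -0.45, where 4.62% of all genes were called, and in Hs578T 11 were called (32.4%) with a median of -0.35.

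The calls of NRG1, MERTK, LRIG3, DUSP6, ETV1 and EPHA4 in Hs578T were kept without any of the 12 libraries, as for ERBB3. The others were lost without single libraries. PHLDA1 was lost without CD44 WT replicate 1 or CD44 KO replicate 2 of Hs578T (adjusted p up to 0.0149), SPRY2 without CD44 WT replicate 1 or CD44 KO replicates 2 or 3 (up to 0.0225), and SPRY4 without CD44 WT replicates 1 or 2 or CD44 KO replicates 1 or 2 (up to 0.0274), by edgeR's quasi-likelihood test. FOSL1 was lost without CD44 WT replicates 1 or 2 or CD44 KO replicates 1 or 2 of Hs578T, or MDA-MB-231 CD44 WT replicate 3 or CD44 KO replicates 1 or 2 (up to 0.0469). GAS6 and CBLB were lost without these 7 libraries or Hs578T CD44 KO replicate 3 (up to 0.0564 and 0.0610). EGF was lost without any of the 6 Hs578T libraries or MDA-MB-231 CD44 KO replicate 2 (up to 0.0499), and SOCS5 without these 7 or MDA-MB-231 CD44 WT replicate 3 or CD44 KO replicates 1 or 3 (up to 0.0552). SOCS5 was also lost with RLE size factors and with library size alone, CBLB with the title's replicate number as a block, GAS6 with consecutive label numbers as a block, and GAS6 and FOSL1 with each line fitted alone. Asking for an absolute log2 fold change of at least 1 removed the calls of LRIG3, PHLDA1, SPRY2, SPRY4, FOSL1, GAS6, CBLB and SOCS5 in Hs578T and of ADAM17 in MDA-MB-231. ADAM17 was lost without Hs578T CD44 WT replicate 2 or CD44 KO replicate 3, MDA-MB-231 CD44 WT replicate 3 or the library without a number, or any MDA-MB-231 CD44 KO library (up to 0.0266), and also with the title's replicate number as a block and with each line fitted alone.

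**Figure D4:**
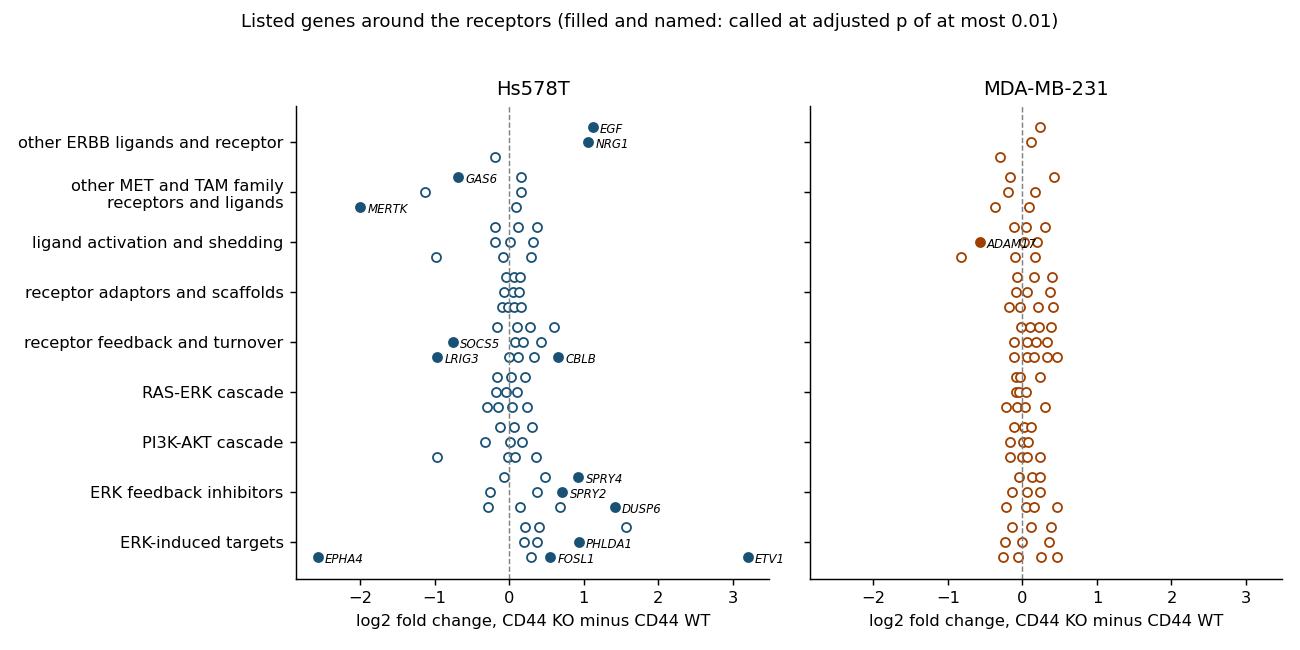
Log2 fold change, CD44 KO against CD44 WT, of the 81 tested genes in 9 lists around the receptors, Hs578T on the left and MDA-MB-231 on the right. Each circle is a gene, spread vertically within its list for legibility; filled and named circles are called, 14 in Hs578T and 1, ADAM17, in MDA-MB-231.

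Between the CD44 WT cells, 7 of 10 ERK feedback genes and 7 of 10 ERK-induced genes were called, each lower in Hs578T, beside 29.4% of all genes. FOSL1 (log2 fold change -4.82), DUSP6 (-3.63), CCND1 (-3.32) and DUSP4 (-3.33) were among them. DUSP6 was at 295 ± 35.6 CPM in MDA-MB-231 CD44 WT, against 23.9 ± 4.30 CPM in Hs578T CD44 WT and 63.7 ± 20.2 CPM in Hs578T CD44 KO (SD, n = 3). ETV1 was at 48.9 ± 17.1 CPM in MDA-MB-231 CD44 WT and at 47.2 ± 9.78 CPM in Hs578T CD44 KO. NRG1 (-3.11), MERTK (-4.13) and GAS6 (-2.60) were lower in Hs578T CD44 WT and EGF (4.46) was higher. EGF passed the filter through Hs578T alone and so had to differ.

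**Figure D5:**
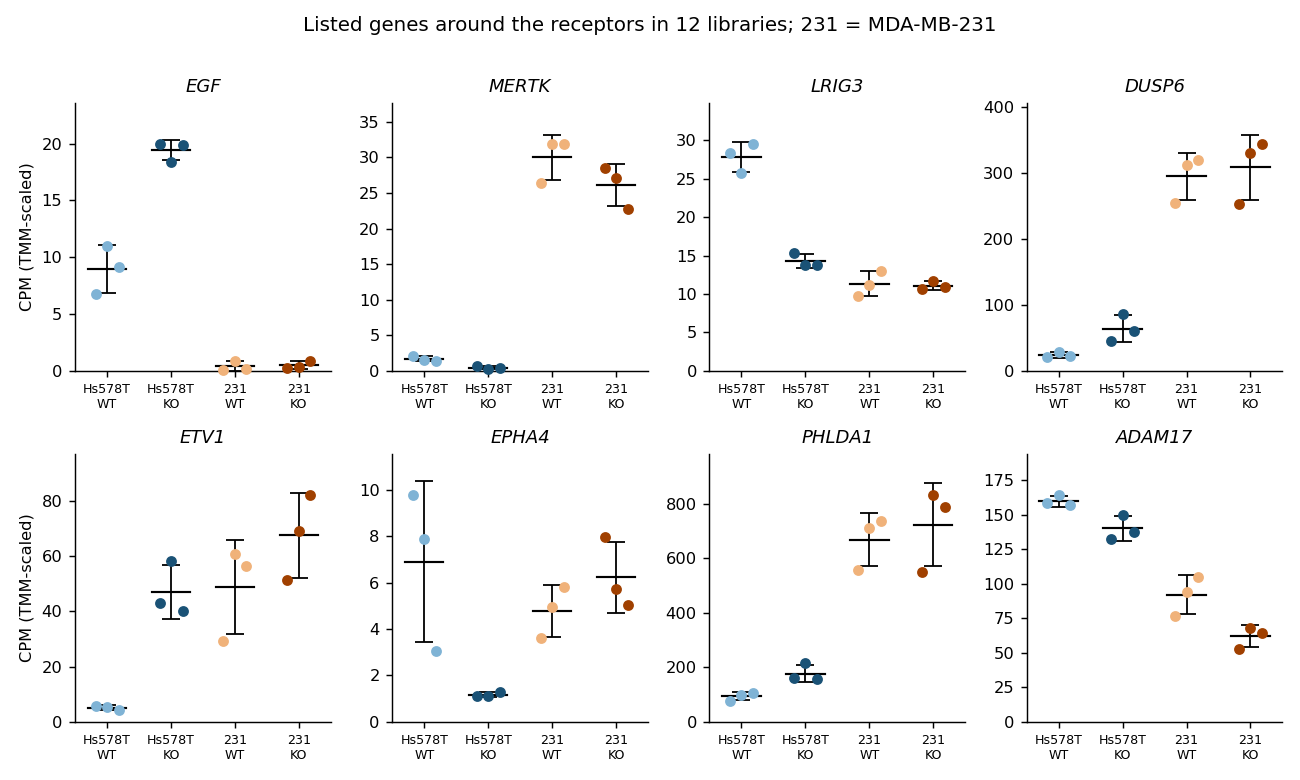
CPM (TMM-scaled, linear axes from 0) of 8 of the 15 listed genes called in a line, in the 12 libraries. Points are libraries, horizontal lines group means and bars 1 SD (n = 3); in Hs578T, EGF, DUSP6, ETV1 and PHLDA1 are higher and MERTK, LRIG3 and EPHA4 lower in all CD44 KO libraries, and ADAM17 is lower in all CD44 KO libraries of both lines.

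The genes whose level followed ERBB3 and MET most closely over the 12 libraries, after each line was centred on its mean, are given as a description. For ERBB3 they were SGSH (Pearson r 0.968), NUDT16L2P (0.966) and PTGS1 (0.961), and for MET they were AASDH (0.967), PCDHGC3 (0.963) and NIBAN1 (0.949). The libraries of a group share their treatment, so these values largely restate which genes moved between CD44 WT and CD44 KO. Within 5 Mb of MET, 28 genes were tested, and their median change in Hs578T was 0.18 on the log2 scale, with 3 called (10.7%). Within 5 Mb of ERBB3, 152 genes had a median of 0.01 and 13 were called (8.55%). The neighbourhoods of some listed genes called in Hs578T held more calls, 13 of 42 around SOCS5 (31.0%, median -0.29), 6 of 19 around ETV1 (31.6%, median 0.12), 7 of 36 around GAS6 (19.4%, median -0.26), 9 of 63 around EPHA4 (14.3%, median -0.20) and 6 of 44 around MERTK (13.6%, median -0.24). Around TGFA and EGFR, which were not called themselves, 13 of 87 genes (14.9%, median -0.29) and 4 of 21 (19%, median -0.06) were called in Hs578T. Around ERBB2, AXL and HBEGF the share was 2.88% to 6.74%. Over all genes tested in Hs578T, 7.51% were called.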

How the data were processed

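Sorted cells of both lines gave 12 stranded mRNA libraries, read as paired ends. HISAT2 (version 2.1.0) was used by the authors for alignment to GRCh38, and they deposited whole-number counts per gene from featureCounts (version 1.6.2) on a GENCODE annotation, with exonic lengths and no normalization. The groups came from the labels, and 1 MDA-MB-231 CD44 WT library has a group but no settled replicate number.

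Tested were the 15836 of 58381 genes that were 300 nt or longer and exceeded 1 CPM in 2 or more libraries. The study's methods word the length filter the other way round, and that reading was among the alternatives. Fits were made with edgeR 4.0.16 in R 4.3.3, using TMM factors, 4 group means over all 12 libraries, glmQLFit (legacy) and glmQLFTest. Both lines thus shared 1 estimate of the spread for each gene. A call needed an adjusted p (Benjamini-Hochberg, over all genes tested) of at most 0.01 and no minimum fold. CPM used TMM-scaled library sizes, and log2 CPM for the likeness of patterns used a prior count of 2. For 0 counts in a group, folds are lower bounds against 3 counts over the group. The fit was tested on simulated counts that had 1 spread per gene for both lines, so a spread that differs between the lines was not covered. Total counts of 10257586 to 19725543 per library limit the precision for sparse genes.

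The 10 genes, the 9 further lists, the markers and the tests were chosen with earlier results of these data known. Named were the 10 genes and CD44, and of each list the called genes, at most the 4 largest per comparison, or genes described as background, and for each of the 10 genes called in either line the 3 tested genes of at least 5 CPM with the highest correlation. HRAS, NRG4, EGR1, SPRED2 and DUSP7 were named after their values were seen. Tried as alternatives were RLE factors, library size only, DESeq2 1.42.0, other filters, each line fitted alone, the newer or robust quasi-likelihood fit, other thresholds, replicate blocks and leaving out each library.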

Additional observations from a re-analysis of the deposited data

Results flagged for a closer look

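No gene of the 10 was flagged. Of the listed genes around the receptors, 7 had a change with CD44 KO that differed between the lines by the test of the difference itself (Hs578T minus MDA-MB-231, log2 scale, edgeR's quasi-likelihood test). The difference was 2.73 for ETV1 (SE 0.362, adjusted p = 0.000183) and -2.95 for EPHA4 (SE 0.505, adjusted p = 0.00171). It was 1.35 for DUSP6 (SE 0.271, adjusted p = 0.00508), 0.95 for NRG1 (SE 0.199, adjusted p = 0.00687) and -1.80 for MERTK (SE 0.357, adjusted p = 0.00490). The differences of LRIG3 and SOCS5 were -0.94 (SE 0.181, adjusted p = 0.00392) and -1.13 (SE 0.246, adjusted p = 0.00857). Those of ETV1 and EPHA4 were called without any of the 12 libraries in turn. The others were lost without single libraries, 5 each for MERTK and LRIG3, 8 for DUSP6, 9 for SOCS5 and 10 for NRG1, with adjusted p up to 0.0306, 0.0165, 0.0201, 0.0293 and 0.0245. The differences of NRG1 and MERTK were also lost with the title's replicate number as a block, that of DUSP6 with robust estimation and that of SOCS5 with library size alone. Those of NRG1 and LRIG3 were lost when an absolute log2 fold change of at least 1 was asked for. Single libraries were not tested for standing apart, since that test is not made on groups of 3.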

How the results depend on the processing

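The call of ERBB3 in Hs578T held under every alternative run in which it was tested, and that of MET was lost when a log2 fold change of at least 1 was asked for and without each of the 6 Hs578T libraries. Of the 9 genes, 1 was then called in Hs578T at a log2 fold change of at least 1, where 744 genes were called in Hs578T, 328 in MDA-MB-231 and 5817 between the CD44 WT cells. Without a filter on low counts, 1984 genes were called in Hs578T, 1370 in MDA-MB-231 and 1373 in the difference between the lines, among them 1 of the 10 in MDA-MB-231 (EGFR, log2 fold change 0.52) and 2 in the difference (ERBB3 and MET). At an adjusted p of at most 0.05 there were 2253, 1518 and 1670 genes, with 3 of the 9 in the difference. DESeq2 called 1138 genes in MDA-MB-231 and 1179 in the difference, with 1 of the 9 in the latter. With each line fitted alone, 315 genes were called in MDA-MB-231. With only genes under 300 nt, which include none of the 10, the counts were 6 in Hs578T, 0 in MDA-MB-231, 0 in the difference and 30 between the CD44 WT cells, because 94 genes were left to test.

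Leaving out 1 library at a time gave 605 to 1685 genes in Hs578T, 355 to 763 in MDA-MB-231, 396 to 804 in the difference and 8669 to 9827 between the CD44 WT cells, with 1 to 2 of the 9 in Hs578T, 0 in MDA-MB-231, 0 to 1 in the difference and 7 between the CD44 WT cells. The lowest counts came without Hs578T CD44 KO replicate 2 in Hs578T, without MDA-MB-231 CD44 KO replicate 2 in MDA-MB-231 and without Hs578T CD44 KO replicate 3 in the difference. The highest in Hs578T, in the difference and between the CD44 WT cells came without MDA-MB-231 CD44 WT replicate 1, and in MDA-MB-231 without Hs578T CD44 WT replicate 3.

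Directions turned only for changes that were not called. With the title's replicate number as a block, MET in MDA-MB-231 became 0.10 and ERBB2 between the CD44 WT cells -0.024. Over the libraries left out in turn, MET in MDA-MB-231 ranged from -0.24 to 0.12, turning without the CD44 WT library that has no number and without CD44 KO replicate 3 (0.016). HBEGF there ranged from -0.16 to 0.043, turning without CD44 KO replicate 3, and AREG from -0.28 to 0.060, turning without CD44 KO replicate 1. ERBB2 between the CD44 WT cells ranged from -0.055, without the library that has no number, to 0.17. In Hs578T, AXL ranged from -0.14 to 0.011, turning without CD44 WT replicate 2 (0.0078) or CD44 KO replicate 2, and EGFR from -0.038, without CD44 KO replicate 2, to 0.12. The cause of these shifts was not tested. Libraries with the same title number did not deviate together in every pair, with correlations of -0.0957 to 0.164. Title numbers were therefore not taken to pair the samples. CD44 WT and CD44 KO libraries with consecutive label numbers correlated positively in every pair, from 0.00793 to 0.164. The remaining pairs of CD44 WT and CD44 KO libraries within a line ranged from -0.171 to 0.093. A block on consecutive label numbers gave 1305 calls for Hs578T, against 1189 in the main fit, and 824 against 731 for MDA-MB-231. The main fit used no block, and what such pairs share was not tested. The replicate block on title numbers, fitted on 11 libraries, called 436 genes in MDA-MB-231 and changed no call of the 9 genes in any comparison, nor did a block on consecutive label numbers. Of the listed genes, CBLB and ADAM17 lost their call with the first block and GAS6 with the second. Library size in place of TMM moved the median log2 difference of all genes between the CD44 WT cells from 0.04 to 0.16 and changed no call of the 9 genes. Depth limits HGF and, in Hs578T, TGFA, EREG and AREG.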

Other observations

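HRAS, which was not tested, had 209 counts in Hs578T CD44 WT replicate 2 and 0 to 12 counts in each of the other 11 libraries. NRG4, an ERBB4 ligand that did not pass the filter, had 17 counts over the Hs578T CD44 KO libraries and 1 over the CD44 WT libraries, a ratio of 16.2 with an exact 95% counting interval of 2.53 to 675. Both were singled out after their values were seen.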
